A study of Homo sapiens with 12 samples.

Results

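The genes described here carry symbols that start with NDUF, the family name of the nuclear genes for subunits and assembly factors of respiratory complex I. Every gene with such a symbol in the annotation of the array was taken, and each gene was read from its brightest probe set (by the mean of the 12 arrays). This gave 44 genes of 19775 with a probe set of their own, and 41 of them were bright enough to test, among 10907 genes tested. All 41 encode proteins, 33 as subunits and 8 as assembly factors of the NDUFAF series. The other 3 (NDUFB2-AS1, NDUFV1-DT and NDUFV2-AS1) are long non-coding RNA genes that lay below the brightness limit (a log2 value above 4 on at least 3 arrays) and were not tested.

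Expression had been profiled in HK-2, an immortalised epithelial line from the human proximal tubule, in a search for signatures of kidney toxicity. Cells in 6-well plates received Nnm (named only so in the labels) at low dose, or its vehicle as control, and were collected after 24 h or 48 h. Dose and time make 4 groups, control and Nnm at each time, with 3 arrays a group from cultures labelled as biological replicates. All groups shared the same cell line and the same defined medium with growth factor, insulin and hydrocortisone, so the results describe 1 line at 1 dose level.

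Complex I (NADH:ubiquinone oxidoreductase) is the entry point of electrons from NADH into the mitochondrial respiratory chain. It is an L-shaped assembly whose N module oxidises NADH, whose Q module passes electrons along iron-sulfur clusters to ubiquinone, and whose membrane arm pumps protons. Its core proteins are encoded partly in the nucleus and partly in mitochondrial DNA, supernumerary subunits surround them, and assembly factors join the modules without staying in the finished enzyme. The proximal tubule reabsorbs most of the filtered solute and depends heavily on mitochondrial ATP.

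The start sites of NDUF genes are shown first because many of these genes were lower together and because regulators of respiratory genes were measured too. The sequences are from RefSeq on build GRCh38.p14, 5′ to 3′ on the strand of the gene, in windows from 250 bases before to 50 bases after the annotated start. Such windows were found for 38 of the 41 genes, not for NDUFAF6, NDUFB5 and NDUFB9. Capitals mark matches to letters known for 3 factors: CCGGAAG for ETS proteins such as GABPA (also on the opposite strand, as CTTCCGG), CGCATGCGC for NRF1 (or GCGCATGCG, its form on the opposite strand), and AAGATGGCG for YY1. The first pair shows the ETS letters in 2 genes that were lower with Nnm, 157 bases before the start of NDUFS1 (chr2:206159445-206159644, minus strand) and 147 bases before that of NDUFAF4 (chr6:96897892-96898091, minus strand).
NDUFS1: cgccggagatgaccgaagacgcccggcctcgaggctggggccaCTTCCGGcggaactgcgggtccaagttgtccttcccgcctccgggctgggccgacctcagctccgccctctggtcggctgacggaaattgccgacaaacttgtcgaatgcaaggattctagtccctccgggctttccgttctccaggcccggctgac
NDUFAF4: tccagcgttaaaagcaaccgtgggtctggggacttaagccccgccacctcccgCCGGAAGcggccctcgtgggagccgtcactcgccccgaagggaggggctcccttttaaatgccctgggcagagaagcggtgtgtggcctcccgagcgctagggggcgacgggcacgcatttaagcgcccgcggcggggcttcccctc

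The NRF1 letters were found in 6 NDUF windows. Shown are the 3 in which they occur on both strands at once, as a run of 10 letters. In NDUFAF5 (chr20:13784928-13785037, plus strand) and NDUFA8 (chr9:122159770-122159879, minus strand), which were lower with Nnm, they begin 4 bases before the start. In NDUFB4 (chr3:120596136-120596335, plus strand), which kept nearly the same value in all groups, they begin 159 bases before it.
NDUFAF5: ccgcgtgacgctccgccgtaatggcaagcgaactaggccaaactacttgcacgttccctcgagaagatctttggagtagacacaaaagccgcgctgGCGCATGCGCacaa
NDUFA8: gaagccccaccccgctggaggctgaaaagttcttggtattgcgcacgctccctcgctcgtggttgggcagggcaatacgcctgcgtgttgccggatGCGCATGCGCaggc
NDUFB4: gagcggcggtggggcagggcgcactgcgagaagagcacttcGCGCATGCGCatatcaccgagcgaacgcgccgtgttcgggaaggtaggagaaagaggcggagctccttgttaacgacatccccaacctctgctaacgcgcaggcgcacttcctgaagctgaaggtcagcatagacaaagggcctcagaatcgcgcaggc

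The YY1 letters lay just after the start, and 3 of the 7 NDUF genes that hold them are shown. NDUFA9 (chr12:4649114-4649143, plus strand) and NDUFS7 (chr19:1383914-1383943, plus strand) were lower with Nnm, and NDUFS4 (chr5:53560650-53560679, plus strand) kept nearly the same value in all groups. The letters begin at base 11, 18 and 22 of the transcript.
NDUFA9: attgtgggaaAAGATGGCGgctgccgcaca
NDUFS7: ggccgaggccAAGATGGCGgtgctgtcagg
NDUFS4: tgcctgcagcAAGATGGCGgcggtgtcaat

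Before the results, 1 feature of the arrays bears on all of them. On the first principal component of all tested genes (50.3% of the variance) the Nnm arrays of replicate 2 lay between the control arrays and the other Nnm arrays at both times. ACTB, used on these arrays to judge RNA quality, had a 5′ signal lower than its 3′ signal by a log2 difference of -1.09 to -1.17 in replicate 2 of all 4 groups and of -0.74 to -0.86 elsewhere, whereas GAPDH did not set replicate 2 apart. The part of RNA quality in the results was not tested. The main counts are given also without the 2 Nnm arrays of replicate 2, and without the replicate 2 arrays of all 4 groups, an omission chosen after the data were seen.

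With Nnm most NDUF genes were lower, by modest amounts. Over both times together, 22 of the 41 fell and 1, NDUFC1, rose (limma, Benjamini-Hochberg adjusted p under 0.05 over all 10907 genes, on the mean of the changes at 24 h and 48 h). That is 53.7% of the NDUF genes, where 16.9% of all tested genes fell and 20.4% rose. The fit counts the arrays of both times as independent. After removal of group means, however, Nnm arrays at 24 h and 48 h correlated at 0.633, 0.696 and 0.484 in replicates 1, 2 and 3. The adjusted p over both times can therefore be too small. A replicate block shifts control and Nnm alike and does not remove a replicate difference in the size of the Nnm change. The median change was -0.34 log2 units for the NDUF genes and 0.02 for all genes, and 38 of 41 changes were below 0, against 48.0% of all genes. At 24 h alone 34 of 41 were below 0 (48.7% of all genes) and at 48 h 39 of 41 (47.9%). The falls ran from NDUFAF3, at 0.98 log2 units or 1.97-fold, to NDUFS3, at 0.22 or 1.17-fold. In such bulk samples, fewer cells of a kind and less RNA per cell cannot be told apart.

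The count of falls was 18 to 24 when each array was left out in turn, 26 without both Nnm replicate 2 arrays (21.3% of all genes) and 24 without replicate 2 of all groups (20.6%). It was 25 when replicate number entered as a block over all arrays, a fit in which 24.6% of all genes fell and 28.0% rose. Without replicate 2 of all groups NDUFC1 and NDUFS3 no longer passed (adjusted p = 0.0662 and 0.0546). The block added NDUFA1 (adjusted p = 0.0397), NDUFA6 (0.0241) and NDUFA7 (0.0194). Of the 23 calls, 18 held whichever array was left out. The others were NDUFA3, NDUFB8, NDUFC1, NDUFS3 and NDUFV3, which passed in 6, 2, 3, 4 and 6 of the 12 omissions, with adjusted p of up to 0.0604, 0.0941, 0.0971, 0.092 and 0.0814.

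**Figure D1:**
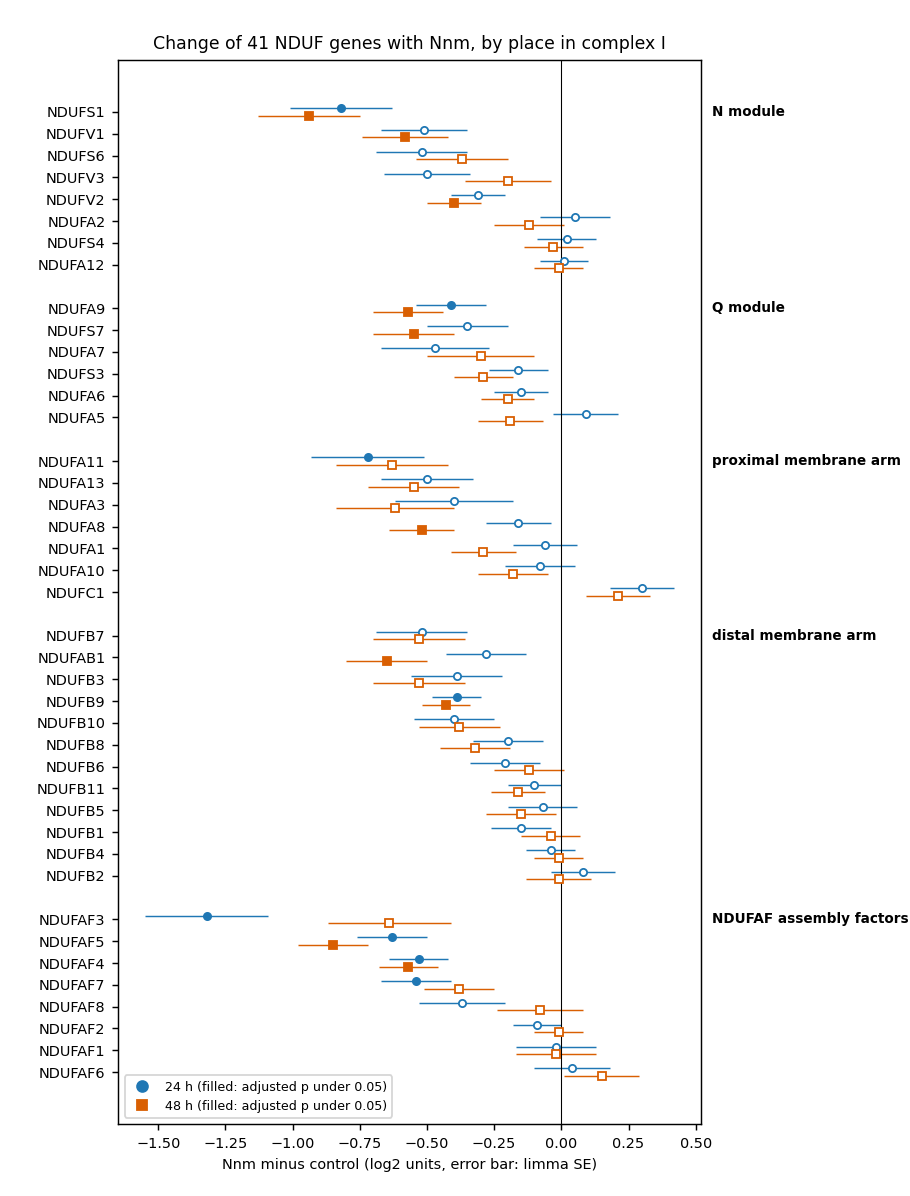
Change of each of the 41 NDUF genes with Nnm (log2 units, Nnm minus control) at 24 h (circles) and 48 h (squares), grouped by place in complex I. Bars are limma standard errors and filled symbols passed an adjusted p of 0.05; nearly all symbols lie left of 0, with NDUFAF3 farthest at 24 h (-1.32) and NDUFC1 to the right at both times.

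The N module, which binds NADH and holds the first iron-sulfur clusters, had 5 of its 8 measured genes lower over both times (62.5%, against 16.9% of all genes). NDUFS1, its largest subunit and a carrier of iron-sulfur clusters, had the largest change of any subunit. At 24 h its log2 values in replicates 1, 2 and 3 were 11.24, 11.35 and 11.12 in control and 10.25, 10.79 and 10.19 with Nnm. At 48 h they were 11.15, 11.35 and 11.27 in control and 10.07, 10.68 and 10.20 with Nnm. Every Nnm array was below every control array, and the replicate 2 array was the highest Nnm array at both times. NDUFS1 fell by 0.82 (SE 0.19, adjusted p = 0.0164) at 24 h, by 0.94 (SE 0.19, adjusted p = 0.0138) at 48 h and by 0.88 (SE 0.13, adjusted p = 0.00126) over both, a 1.84-fold difference.

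NDUFV1, the subunit that binds NADH and the flavin cofactor, behaved differently among the replicates. Its values at 24 h were 11.05, 10.56 and 10.82 in control and 10.26, 10.29 and 10.36 with Nnm. At 48 h they were 11.10, 10.49 and 10.92 in control and 10.28, 10.32 and 10.16 with Nnm. The Nnm arrays lay close together, below all controls, and the spread was in the controls, where replicate 2 was the lowest at both times. NDUFV1 fell by 0.55 (SE 0.12, adjusted p = 0.00529) over both times and by 0.58 (adjusted p = 0.0409) at 48 h, where the call was lost with the replicate block within each time (adjusted p = 0.0696). At 24 h its change was -0.51 (adjusted p = 0.0518, and 0.021 with the replicate block over all arrays).

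NDUFV2, which holds an iron-sulfur cluster beside NDUFV1, went from 11.26 ± 0.11 (SD, n = 3) in control to 10.95 ± 0.12 with Nnm at 24 h. At 48 h it went from 11.11 ± 0.09 to 10.71 ± 0.05. The groups did not overlap at either time, and over both times it fell by 0.35 (SE 0.07, adjusted p = 0.00432). At 48 h it fell by 0.40 (adjusted p = 0.0294, and 0.0583 with the block within each time). NDUFS6, a zinc-binding subunit needed late in assembly, fell by 0.45 (adjusted p = 0.016), from 12.36 ± 0.02 to 11.83 ± 0.30 at 24 h and from 12.10 ± 0.07 to 11.73 ± 0.31 at 48 h. Its replicate 2 array with Nnm at 48 h (12.09) lay within the control range of 12.03 to 12.16. NDUFV3, a small accessory subunit, fell by 0.35 (adjusted p = 0.0345) over both times. Its call was lost with the mean of its probe sets (-0.23, adjusted p = 0.0581) and with no brightness limit (adjusted p = 0.0655).

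The remaining N module genes kept nearly the same values. NDUFS4, an accessory subunit whose loss causes a mitochondrial encephalopathy, differed by 0.02 at 24 h and -0.03 at 48 h (SE 0.11 for each). NDUFA12 differed by 0.01 and -0.01 (SE 0.09), and NDUFA2, a subunit with a thioredoxin-like fold, by 0.05 and -0.12 (SE 0.13). Within this module the changes over both times therefore ran from -0.88 for NDUFS1 to near 0 for NDUFA12 and NDUFS4.

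In the Q module, where electrons reach ubiquinone, 3 of 6 measured genes fell over both times. NDUFA9, an accessory subunit that binds NADPH, had the largest change there. Its values at 24 h were 11.10, 11.21 and 11.10 in control and 10.64, 10.92 and 10.62 with Nnm. The 48 h values were 10.85, 10.95 and 11.01 in control and 10.23, 10.60 and 10.27 with Nnm. The groups were apart at both times, with replicate 2 again the highest Nnm array. NDUFA9 fell by 0.41 (SE 0.13, adjusted p = 0.0437) at 24 h, 0.57 (SE 0.13, adjusted p = 0.0176) at 48 h and 0.49 (SE 0.09, adjusted p = 0.00259) over both. The call at 24 h was lost with the block within that time (adjusted p = 0.0615) and in 4 other settings (adjusted p = 0.0615 to 0.0804), and held in 3 of 12 array omissions.

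NDUFS7, the core subunit that holds the last iron-sulfur cluster before ubiquinone, was also lower on every Nnm array. At 24 h it read 9.40, 9.10 and 9.19 in control and 8.93, 8.88 and 8.82 with Nnm. Its 48 h values were 9.57, 8.94 and 9.33 in control and 8.70, 8.87 and 8.61 with Nnm. The gap was narrow in replicate 2 at 48 h (8.94 against 8.87) and wide in replicate 1. NDUFS7 fell by 0.45 (SE 0.11, adjusted p = 0.00944) over both times and by 0.55 (adjusted p = 0.04) at 48 h, and its change at 24 h was -0.35 (adjusted p = 0.125). The call at 48 h held in 5 of 12 array omissions and was lost with the block within that time (adjusted p = 0.0936), with no brightness limit (0.0734) and with the compared groups alone (0.103).

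NDUFS3, the other core subunit of this module with a probe set of its own, fell by 0.22 (SE 0.08, adjusted p = 0.0387) over both times, the smallest fall of all. NDUFA7, an accessory subunit, had a change of -0.38 (SE 0.14, adjusted p = 0.0581, and 0.0194 with the replicate block). NDUFA6, which anchors an acyl carrier protein to the Q module, had -0.18 (SE 0.07, adjusted p = 0.0802, and 0.0241 with the block). NDUFA5 had 0.09 at 24 h and -0.19 at 48 h (SE 0.12), within its spread.

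In the proximal membrane arm 4 of 7 measured genes fell over both times and 1 rose (16.9% and 20.4% of all genes). NDUFA11, a membrane subunit at the contact with complex III in respiratory supercomplexes, was the most lowered. Its values at 24 h were 11.91, 11.85 and 12.02 in control and 10.84, 11.58 and 11.20 with Nnm. At 48 h they were 11.87, 11.73 and 12.05 in control and 10.97, 11.66 and 11.11 with Nnm. The groups did not overlap, but at 48 h the replicate 2 Nnm array (11.66) came close to the lowest control (11.73). NDUFA11 fell by 0.68 (SE 0.15, adjusted p = 0.00587) over both times and by 0.72 (adjusted p = 0.0362, and 0.0626 with the block within that time) at 24 h, and its change at 48 h was -0.63 (adjusted p = 0.0655, and 0.0317 with the block over all arrays).

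NDUFA13, a subunit first described as a mediator of interferon- and retinoid-induced cell death, was lower on all Nnm arrays. It went from 11.94 ± 0.12 to 11.44 ± 0.29 at 24 h and from 11.99 ± 0.06 to 11.45 ± 0.30 at 48 h. Over both times it fell by 0.53 (SE 0.12, adjusted p = 0.00806). At the single times its changes were -0.50 (adjusted p = 0.0631) and -0.55 (adjusted p = 0.0593), with 0.031 and 0.0273 in the block.

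NDUFA8, a disulfide-bonded subunit on the face towards the intermembrane space, went from 10.95 ± 0.09 to 10.79 ± 0.05 at 24 h and from 10.90 ± 0.06 to 10.38 ± 0.22 at 48 h. Its groups were apart at both times. It fell by 0.34 (SE 0.08, adjusted p = 0.00982) over both and by 0.52 (adjusted p = 0.0191) at 48 h, and at 24 h the change was -0.16 (adjusted p = 0.345). NDUFA3 fell by 0.51 (SE 0.15, adjusted p = 0.0244) over both times. Its replicate 2 array read 10.89 with Nnm against 10.88 in control at 24 h, while replicates 1 and 3 read 10.22 and 10.23 against 10.98 and 10.70. NDUFA1, an X-linked membrane subunit, and NDUFA10, which has a nucleoside kinase fold, had changes of -0.17 (adjusted p = 0.114, and 0.0397 with the block) and -0.13 (adjusted p = 0.283).

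NDUFC1, a small membrane subunit, was the exception in direction. Its values at 24 h were 12.06, 11.99 and 11.83 in control and 12.50, 12.08 and 12.21 with Nnm. At 48 h they were 11.97, 11.76 and 11.84 in control and 12.13, 12.04 and 12.02 with Nnm. Every Nnm array was above every control array of its time, at 24 h by a gap no wider than the distance between 12.06 and 12.08. NDUFC1 rose by 0.25 (SE 0.09, adjusted p = 0.0414) over both times, and at the single times it had 0.30 (adjusted p = 0.104, and 0.029 with the block) and 0.21 (adjusted p = 0.279). A second, dimmer probe set of the gene (mean log2 5.21) gave -0.01, and with the mean of both probe sets the change was 0.12 (adjusted p = 0.244). The call was also lost with no brightness limit (adjusted p = 0.0511) and with arrays centred on the median of the tested genes (adjusted p = 0.0544).

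In the distal membrane arm, the part farthest from the NADH site, 6 of 12 measured genes fell over both times (16.9% of all genes). NDUFB9, an accessory subunit of the LYR family that binds an acyl carrier protein, had the largest overall fall relative to its error in this arm. Its values at 24 h were 13.05, 12.97 and 13.05 in control and 12.65, 12.65 and 12.61 with Nnm. The 48 h values were 12.89, 12.85 and 13.02 in control and 12.40, 12.60 and 12.46 with Nnm. The groups were apart at both times, and the replicates moved by similar amounts at 24 h, while replicate 2 moved least at 48 h. NDUFB9 fell by 0.39 (SE 0.09, adjusted p = 0.0191) at 24 h, 0.43 (SE 0.09, adjusted p = 0.0161) at 48 h and 0.41 (SE 0.07, adjusted p = 0.00156) over both. Both single-time calls were lost with the block within each time (adjusted p = 0.0628 and 0.0562) and with the compared groups alone (0.0574 and 0.0685).

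NDUFAB1, the mitochondrial acyl carrier protein, also serves fatty acid and lipoate synthesis outside complex I. At 24 h it read 11.69, 11.38 and 11.62 in control and 11.52, 11.04 and 11.29 with Nnm, so the groups overlapped although each replicate was lower. The values at 48 h were 11.85, 11.49 and 11.71 in control and 11.05, 11.19 and 10.86 with Nnm, without overlap. NDUFAB1 fell by 0.46 (SE 0.11, adjusted p = 0.00866) over both times and by 0.65 (adjusted p = 0.0239, and 0.052 with the block within that time) at 48 h, and its change at 24 h was -0.28 (adjusted p = 0.214).

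The other falls of the distal arm were of 0.26 to 0.52 over both times. NDUFB7, which lies on the intermembrane face, fell by 0.52 (SE 0.12, adjusted p = 0.00724), from 10.85 ± 0.11 to 10.33 ± 0.23 at 24 h and from 10.72 ± 0.22 to 10.20 ± 0.27 at 48 h. NDUFB3, a single-span membrane subunit, fell by 0.46 (adjusted p = 0.0143), NDUFB10 by 0.39 (adjusted p = 0.0164) and NDUFB8 by 0.26 (adjusted p = 0.0418). The other 6 genes of the arm (NDUFB6, NDUFB11, NDUFB5, NDUFB1, NDUFB4 and NDUFB2) had changes from -0.16 to 0.04 and adjusted p of 0.153 or more. NDUFB4 was the steadiest, at 14.17 ± 0.07 and 14.14 ± 0.07 at 24 h and 14.07 ± 0.09 and 14.05 ± 0.06 at 48 h in control and Nnm.

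Among the 8 assembly factors of the NDUFAF series 4 fell over both times. The number was the same in each array omission and each alternative, except without replicate 2 of all groups, where NDUFAF8 passed too (adjusted p = 0.036). NDUFAF3 and NDUFAF4 act together at an early step, joining the Q module to the membrane. NDUFAF3 read 9.65, 9.62 and 9.80 in control at 24 h and 8.07, 8.95 and 8.09 with Nnm. At 48 h it read 9.43, 9.40 and 9.68 in control and 8.52, 9.15 and 8.92 with Nnm. All Nnm arrays were below the controls, those of replicates 1 and 3 by more than replicate 2. NDUFAF3 fell by 1.32 (SE 0.23, adjusted p = 0.00804), a 2.5-fold difference, at 24 h and by 0.98 (SE 0.16, adjusted p = 0.00195) over both times. At 48 h its change was -0.64 (adjusted p = 0.0874, and 0.0419 with the block).

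NDUFAF4 read 10.22, 10.16 and 10.32 in control at 24 h and 9.83, 9.53 and 9.75 with Nnm. Its 48 h values were 10.11, 9.86 and 10.05 in control and 9.34, 9.49 and 9.48 with Nnm. Replicate 2 was no closer to control than the others at 24 h and was the closest at 48 h. NDUFAF4 fell by 0.53 (SE 0.11, adjusted p = 0.0141) at 24 h, 0.57 (SE 0.11, adjusted p = 0.0139) at 48 h and 0.55 (SE 0.08, adjusted p = 0.00112) over both. Its second, dimmer probe set (mean log2 5.94) gave a larger change of -1.55.

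NDUFAF5 and NDUFAF7 are assembly factors that modify arginines, the first as a hydroxylase acting on NDUFS7 and the second as a methyltransferase. NDUFAF5 read 9.22, 9.31 and 9.30 in control at 24 h and 8.52, 8.85 and 8.59 with Nnm. The values at 48 h were 8.82, 8.95 and 9.09 in control and 8.01, 8.33 and 7.96 with Nnm. The gaps between the groups were wider than the spread within either at both times. NDUFAF5 fell by 0.63 (SE 0.13, adjusted p = 0.0131) at 24 h, 0.85 (SE 0.13, adjusted p = 0.00605) at 48 h and 0.74 (SE 0.09, adjusted p = 0.000628) over both, the smallest adjusted p of any NDUF gene. NDUFAF7 went from 8.51 ± 0.09 to 7.96 ± 0.15 at 24 h and from 8.27 ± 0.19 to 7.89 ± 0.12 at 48 h, and fell by 0.46 (SE 0.09, adjusted p = 0.0035) over both. With the mean of its 3 probe sets NDUFAF7 changed by -0.30 at 24 h (adjusted p = 0.185, against 0.0178) and by -0.58 at 48 h (adjusted p = 0.0341, against 0.0668).

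The other 4 assembly factors did not pass. NDUFAF8, the partner that stabilises NDUFAF5, had -0.37 (adjusted p = 0.119) at 24 h and -0.08 at 48 h. NDUFAF1, a factor of the complex that builds the proximal membrane arm, had -0.02 at both times (SE 0.15). NDUFAF2, a relative of NDUFA12 that acts when the N module is attached, had -0.09 and -0.01 (SE 0.09). NDUFAF6, an early factor, had 0.04 and 0.15 (SE 0.14), and all its Nnm values at 48 h (8.90 to 8.99) were above the controls (8.75 to 8.85).

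**Figure D2:**
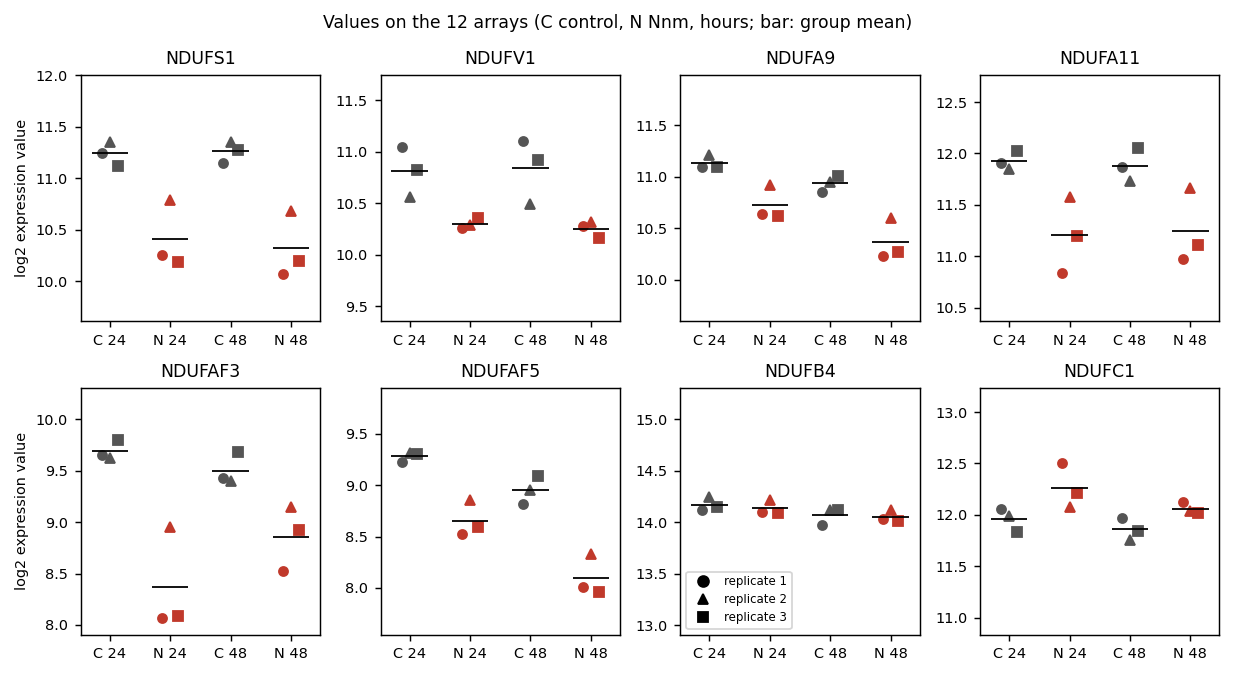
Log2 expression values of 8 NDUF genes on the 12 arrays, control (C, grey) and Nnm (N, red) at 24 h and 48 h; symbols give the replicate number, bars the group means, and all panels span the same range. NDUFS1, NDUFA9, NDUFA11, NDUFAF3 and NDUFAF5 were lower with Nnm with the replicate 2 triangle nearest to control, NDUFV1 was lower with its spread in the controls, NDUFB4 was level and NDUFC1 was higher.

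Read by function, all 5 core subunits measured (NDUFS1, NDUFV1, NDUFS7, NDUFV2 and NDUFS3) fell over both times, where 16.9% of all genes fell. Their falls were of 0.22 to 0.88, with a median change of -0.45. These subunits carry the flavin or iron-sulfur centres, or form the Q site. Leaving out 1 array gave 4 or 5 of them, and leaving out replicate 2 of all groups gave 4 (20.6% of all genes). NDUFA4 and NDUFA4L2 are not named in the probe annotation used here. NDUFC2, NDUFS5 and NDUFS8 share all their probe sets with other genes, so no value is given for them.

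At 24 h alone, 8 NDUF genes fell and 0 rose, where 8.85% of all genes fell and 10.6% rose. They were NDUFAF3, NDUFS1, NDUFAF5, NDUFA11, NDUFAF4, NDUFA9, NDUFAF7 and NDUFB9. At 48 h 10 fell and 0 rose, where 5.34% of all genes fell and 8.45% rose. These were NDUFS1, NDUFAF5, NDUFAF4, NDUFA9, NDUFB9, NDUFV1, NDUFS7, NDUFV2, NDUFA8 and NDUFAB1. Thus NDUFS1, NDUFA9, NDUFB9, NDUFAF4 and NDUFAF5 passed at each time in this fit. With the replicate block within each time, 3 of these (NDUFS1, NDUFAF4 and NDUFAF5) passed at each time. The median changes of the 41 genes were -0.28 at 24 h and -0.30 at 48 h (0.01 and 0.02 for all genes).

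The counts at single times turned on single arrays. At 24 h the count was 2, 15 and 2 on omission of Nnm replicates 1, 2 and 3, and 5 and 1 on omission of control replicates 1 and 3. At 48 h it was 1, 19 and 2 on omission of Nnm replicates 1, 2 and 3, and 3 and 2 on omission of control replicates 1 and 3. Calls over all genes also moved with the arrays used, at 24 h from 8.85% to 15.9% without both Nnm replicate 2 arrays. The share of all genes is not given for each single omission, so these swings are not read as particular to NDUF genes. NDUFAF3 was the 1 gene of the 8 at 24 h that passed in all 12 omissions, and NDUFAF5 the 1 of the 10 at 48 h. The others passed in 3 to 11 omissions at 24 h and in 5 to 10 at 48 h. With replicate number entered as a block over all arrays, 17 fell and 1 (NDUFC1) rose at 24 h (18.8% and 20.0% of all genes), and 19 fell and 0 rose at 48 h (13.7% and 18.5%). The falls added by the block at 24 h were those of NDUFV1, NDUFS6, NDUFB7, NDUFB3, NDUFA13, NDUFV2, NDUFB10, NDUFV3 and NDUFA7 (adjusted p = 0.021 to 0.0447). At 48 h they were those of NDUFB3, NDUFB7, NDUFA13, NDUFA3, NDUFAF7, NDUFS3, NDUFA11, NDUFA1 and NDUFAF3 (adjusted p = 0.0103 to 0.0419). A block within each time, which fits the 6 arrays of that time alone, went the other way and gave 5 falls at 24 h (4.3% of all genes) and 5 at 48 h (4.7%), with 0 rises at either time (6.1% and 8.22% of all genes). It ended the calls of NDUFA9, NDUFA11 and NDUFB9 at 24 h and of NDUFAB1, NDUFB9, NDUFS7, NDUFV1 and NDUFV2 at 48 h.

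Overlap between the groups gave a description that needs no model of the spread. In 22 NDUF genes (53.7%) all 3 Nnm values lay below all 3 controls at 24 h, against 18.7% of all genes. At 48 h this held for 20 genes (48.8%, against 15.8%), and at both times for 15 (36.6%, against 9.73%). All 3 Nnm values lay above the controls in 1 NDUF gene, NDUFC1, at 24 h (21.1% of all genes) and in 2, NDUFC1 and NDUFAF6, at 48 h (20.3%). Replicates 1 and 3 alone were below all 3 controls in 30 NDUF genes at 24 h (28.0% of all genes) and in 27 at 48 h (26.2%).

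The change with Nnm was not shown to differ between the times for any NDUF gene. The test of the difference (limma, 48 h minus 24 h) called 0 of the 41 and 0.0% of all genes, and 0 of the 41 had an unadjusted p under 0.05 (698 of all genes). With the block 0 NDUF genes were called (0.00917% of all genes in each direction), and with array weights 0. The smallest adjusted p was 0.779, for NDUFA8. The largest differences were those of NDUFAF3 (0.68, SE 0.33), NDUFAB1 (-0.37, SE 0.22) and NDUFA8 (-0.36, SE 0.17).

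Time in culture alone moved the NDUF genes little. Between the control groups (48 h minus 24 h) 0 of the 41 passed, where 0.0458% of all genes fell and 0.0825% rose, and 3 of the 41 had an unadjusted p under 0.05 (1711 of all genes). The smallest adjusted p was 0.199, for NDUFA5. With the block 0 of the 41 passed too, where 4.6% of all genes fell and 3.87% rose. Of the 8 assembly factors 0 passed, and their changes were -0.32 to -0.16. Changes were below 0 in 26 of the 41 NDUF genes (63.4%) and in 53.0% of all genes. These control arrays are also those of the Nnm comparisons, so the values are not independent of them.

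The lower values were seen in each replicate to a different extent. Set against the control array of the same number, the 41 genes had median changes of -0.34, -0.09 and -0.33 in replicates 1, 2 and 3 at 24 h, and of -0.41, -0.10 and -0.42 at 48 h. In replicate 2, 32 of 41 genes were still below 0 at 24 h and 29 at 48 h. All 6 pairs were below 0 in 21 genes (51.2%, against 20.4% of all genes), and in NDUFC1 none was. Pairs of the same replicate number at 24 h and 48 h are not independent of each other. The replicate 2 arrays are those with the lower 5′ to 3′ difference of ACTB in every group, and its part was not tested. Without both Nnm replicate 2 arrays 16 NDUF genes fell at 24 h (15.9% of all genes) and 22 at 48 h (12.5%). Without replicate 2 of all groups 18 fell at 24 h (14.9%) and 21 at 48 h (9.93%). Calls over all genes rose too, from 8.85% and 5.34%. Falls over both times were also counted by module, without both Nnm replicate 2 arrays (21.3% of all genes fell). They were 5 of 8 in the N module, 5 of 6 in the Q module, 5 of 7 in the proximal arm and 7 of 12 in the distal arm. Without replicate 2 of all groups they were 5, 3, 5 and 6 (20.6% of all genes).

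**Figure D3:**
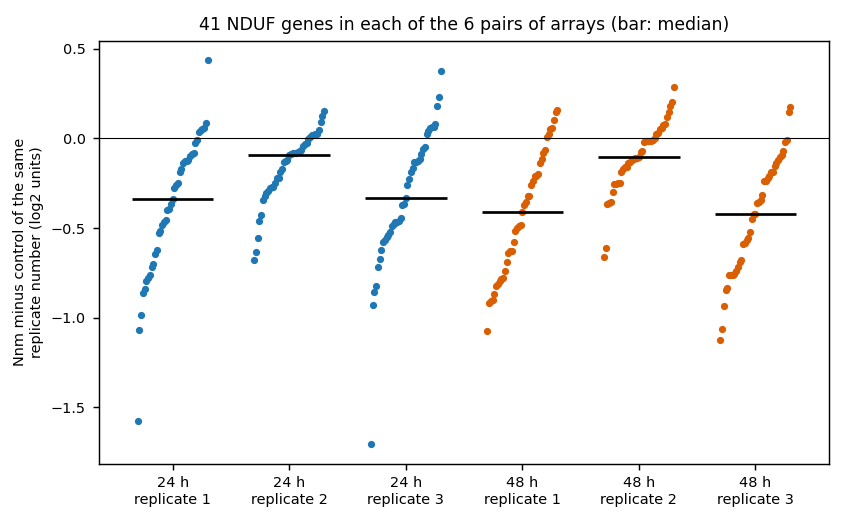
Change of each of the 41 NDUF genes (points, sorted within each column) from the control array to the Nnm array of the same replicate number, in log2 units, for 3 replicates at 24 h and 48 h. Horizontal bars are the medians, which lie at -0.09 and -0.10 in replicate 2 and between -0.33 and -0.42 in the others.

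Further probe sets gave a check within the arrays. Of the 12 NDUF genes with more than 1 bright probe set, 9 had the same direction over both times in all of them. The exceptions were NDUFB1, NDUFB2 and NDUFC1. For NDUFB1 the second, dim probe set (mean log2 4.52) gave a change of 0.0 after rounding, so neither direction. At 48 h alone the second probe set of NDUFV3 gave 0.04, against -0.2 from the brightest. NDUFS1 had 4 probe sets, with changes over both times of -0.88, -1.12, -0.53 and -0.01, the last from the dimmest (mean log2 4.41). With their mean in place of the brightest, NDUFS1 changed by -0.62 (adjusted p = 0.0643) at 24 h, -0.65 (adjusted p = 0.068) at 48 h and -0.63 (adjusted p = 0.00918) over both. The 2 probe sets of NDUFA11 gave -0.68 and -0.64, the 2 of NDUFAF5 -0.74 and -0.86, and the 2 of NDUFB8 -0.26 and -0.24.

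Each motif shown above was found both in NDUF genes that fell and in others. YY1 letters were in 7 of 38 windows (18.4%), against 4.95% of tested genes and 2.14% of all genes with a window. All 7 began between bases 10 and 26 of the transcript on the coding strand. Of the genes that fell, 3 of 21 held them (14.3%), and of the others 4 of 17 (23.5%). ETS letters were in 7 of 38 (18.4%, against 23.3% of tested and 12.2% of all genes), 5 of 21 that fell and 2 of 17 others. NRF1 letters were in 6 of 38 (15.8%, against 4.48% and 2.34%), 4 of 21 that fell (NDUFAF5, NDUFA8, NDUFS6 and NDUFS7) and 2 of 17 others (NDUFA5 and NDUFB4). The letters TCAAGGTCA of the estrogen-related receptors were in 0 of 38 (0.233% of tested genes). Both strands were searched and matches to different motifs did not overlap in any NDUF window. These matches describe letters in a window of 300 bases and say nothing on binding.

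Regulators of respiratory genes moved in both directions, 4 up and 5 down of 13 over both times (30.8% and 38.5%, against 20.4% and 16.9% of all genes). GABPA, the ETS factor for many respiratory promoters, rose by 0.86 (SE 0.12, adjusted p = 0.000942). PPARGC1A and PPRC1, coactivators of mitochondrial biogenesis, fell by 0.85 (SE 0.18, adjusted p = 0.00524) and 0.78 (SE 0.11, adjusted p = 0.000888). The other genes of these counts, chosen after their values were seen, were GABPB1 (0.45), NRF1 (0.52) and YY1 (0.27) among the rises and TFB1M (-0.82), TFB2M (-0.22) and MYC (-0.47) among the falls. NRF1 itself was 0.16 higher (adjusted p = 0.517) at 24 h and rose by 0.88 (adjusted p = 0.0114) at 48 h, while the test of the difference between times called 0 of these 13 genes.

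Complex I has further assembly factors outside the NDUF series, and 5 of 13 fell while 0 rose over both times (38.5%, against 16.9% of all genes, median change -0.26). FOXRED1, a flavoprotein of mid-to-late assembly, fell by 1.12 (SE 0.22, adjusted p = 0.00345) and ACAD9, an acyl-CoA dehydrogenase that became part of the membrane-arm assembly complex, by 1.06 (SE 0.22, adjusted p = 0.00455). AIFM1, which helps import small respiratory proteins, fell by 0.66. DMAC2 and TMEM126B, the last of the 5 and chosen after their values were seen, fell by 0.26 and 0.37. With the block over all arrays 8 fell and 1 rose (24.6% and 28.0% of all genes). Without both Nnm replicate 2 arrays 9 fell (21.3% of all genes), without replicate 2 of all groups 8 (20.6%), and with array weights 9 (24.8%).

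Mitochondrially encoded subunits were read beside the nuclear ones. Of ND2, ND4 and ND6, the 3 with bright probe sets, 0 passed, and their changes over both times were -0.18 (SE 0.10), -0.01 (SE 0.06) and -0.06 (SE 0.10). With the block ND2 passed (adjusted p = 0.0194), and at 48 h it had -0.32 (adjusted p = 0.131, and 0.015 with the block). The group means were 15.07 to 15.39 for ND2, 15.44 to 15.56 for ND4 and 9.83 to 10.05 for ND6. Whether the arrays can show changes at the high levels of ND2 and ND4 was not tested. The change of ND2 was as large as that of NDUFA6 (-0.18). The difference between these and the nuclear subunits was not tested.

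Other respiratory complexes had genes that fell as well. Over both times 19 of 39 genes of complexes II to V fell (48.7%, against 16.9% of all genes), at a median change of -0.25. In that list 1 gene, ATP5MC2, rose (0.36, chosen after its value was seen). The block gave 28 falls (24.6% of all genes), and omission of both Nnm replicate 2 arrays gave 26 (21.3%). Omission of replicate 2 of all groups gave 22 (20.6%), and array weights gave 30 (24.8%). The share that fell was 3 of 7 in complex II, 4 of 7 in complex III, 3 of 10 in complex IV and 9 of 15 in complex V. The complex II list includes the assembly factors SDHAF1 to SDHAF4, and its falls were those of SDHA, SDHAF3 and SDHAF4. SDHA, the flavoprotein of complex II, fell by 0.82 (SE 0.13, adjusted p = 0.00147), CYC1, cytochrome c1 of complex III, by 0.73 (SE 0.11, adjusted p = 0.00122), and ATP5F1B, the catalytic beta subunit of ATP synthase, by 0.76 (SE 0.08, adjusted p = 0.000433). COX5A of complex IV fell by 0.34 (adjusted p = 0.0147). Mitochondrial ribosomal proteins, which are needed to make the mitochondrially encoded subunits, fell in 42 of 75 (56.0%, against 16.9% of all genes). They rose in 0, at a median change of -0.28. With the block over all arrays 54 fell and 2 rose (24.6% and 28.0% of all genes). Without both Nnm replicate 2 arrays 50 fell and 1 rose (21.3% and 25.4% of all genes). Without replicate 2 of all groups 43 fell (20.6%). MRPL12 fell by 1.26 (SE 0.16, adjusted p = 0.000593).

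Iron-sulfur cluster assembly, which supplies the clusters of the N and Q modules, had 3 of 11 genes lower (27.3%, against 16.9% of all genes). None was higher, the median was -0.10, and 6 of the 11 changes were below 0. BOLA3 and GLRX5, late factors of cluster transfer, fell by 0.74 (SE 0.15, adjusted p = 0.0038) and 0.39 (SE 0.08, adjusted p = 0.00549), and FDX2, an electron donor for cluster synthesis, by 0.42 (adjusted p = 0.0145).

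**Figure D4:**
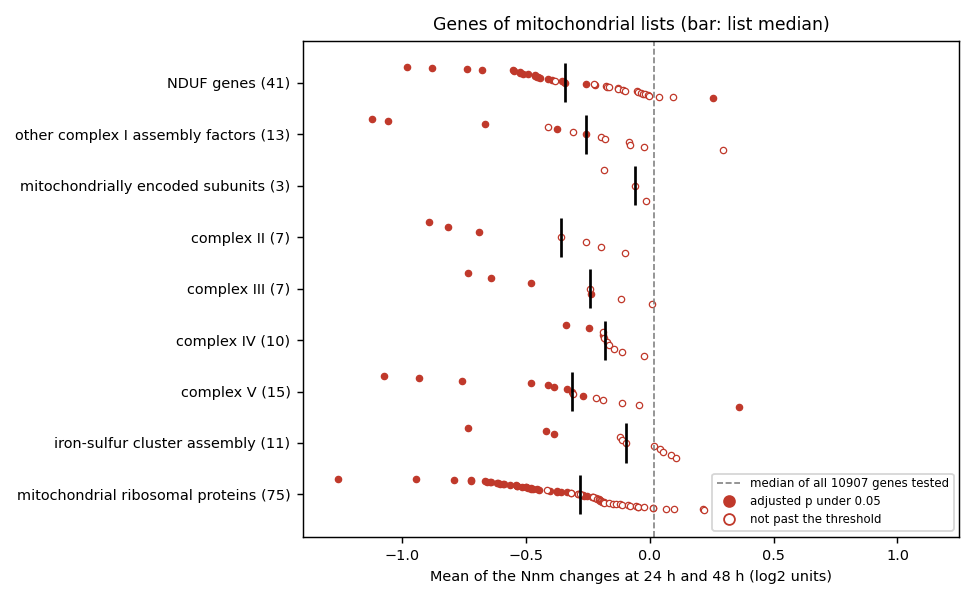
Mean of the Nnm changes at 24 h and 48 h (log2 units) for genes of the NDUF family and of other mitochondrial lists, with the number tested in parentheses; filled points passed an adjusted p of 0.05, black bars are list medians and the dashed line is the median of all genes tested (0.02). The NDUF median is -0.34, complexes II to V and the mitochondrial ribosomal proteins also lie left of the line, and the 3 mitochondrially encoded subunits lie at -0.18 to -0.01.

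Markers of cell type were read beside these results. All 5 epithelial markers were bright, but of 10 proximal tubule markers only DPP4 was, and it rose by 0.98 (adjusted p = 0.000898) over both times, so LRP2, CUBN, SLC34A1 and the other 6 gave no signal that could be tested. The summed log2 level of the proximal tubule list was 34.5 to 35.1 in control and 35.4 to 35.9 with Nnm at 24 h, and 35.1 to 35.4 and 36.3 to 36.4 at 48 h. Such sums include markers below the brightness limit, and DPP4 alone changed by 0.77 at 24 h and 1.19 at 48 h. The distal nephron sum, with 3 of 5 bright, was 23.2 to 24.0 and 25.7 to 26.0 at 24 h, and 25.4 to 25.6 and 26.3 to 26.8 at 48 h. Its bright genes SCNN1A, TFCP2L1 and SLC12A1 changed by 0.75, 1.67 and -0.03 at 24 h and by 0.71, 0.51 and -0.02 at 48 h. SLC12A1 had group means of 4.01 to 4.05, close to the brightness limit. Of 4 podocyte markers 2 were bright, at 17.5 to 18.1 and 18.1 to 20.0, then 17.3 to 18.2 and 18.1 to 19.0. The epithelial sum was 56.7 to 58.1 and 55.0 to 57.7 at 24 h, and 55.8 to 58.1 and 54.2 to 56.8 at 48 h. Single bright markers passed over both times beside these sums. KRT8, an epithelial keratin, fell by 0.63 (adjusted p = 0.0394), and in the block KRT18 (-0.36, adjusted p = 0.00276) and CDH1 (-0.29, adjusted p = 0.0297) passed too. EPCAM and KRT19, also epithelial, changed by 0.07 (adjusted p = 0.507) and 0.04 (adjusted p = 0.917) and passed in neither fit. Without both Nnm replicate 2 arrays 0 of the 5 epithelial markers passed, and without replicate 2 of all groups 2 fell. TFCP2L1 and SCNN1A of the distal nephron rose by 1.09 (adjusted p = 0.000942) and 0.73 (adjusted p = 0.00243). SYNPO and PODXL of the podocyte list rose by 0.52 (adjusted p = 0.0357) and 0.53 (adjusted p = 0.0314). COL1A1, a fibroblast collagen, fell by 0.43 (adjusted p = 0.013). DCN and LUM of the same list changed by 0.02 (adjusted p = 0.917) and 0.22 (adjusted p = 0.135). At 48 h LUM had 0.47 (adjusted p = 0.0694, and 0.0451 in the block). PECAM1 of the endothelial list had 0.26 over both times (adjusted p = 0.0779, and 0.0398 in the block), but its group means (4.05 to 4.5) lay close to the brightness limit. None of 4 leukocyte markers, 1 of 4 endothelial markers and 3 of 6 fibroblast markers were bright. The part of these shifts in the NDUF results was not tested.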

How the data were processed

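RNA was hybridised as biotinylated cRNA to Affymetrix arrays, with precision limited by their number (12). The authors deposited log2 expression values from GCRMA, per the submitters' processing notes. Its version and the arrays normalised together are not given in the sources used here. That the logarithm has base 2 follows from how far the values range. Array medians were 2.925 to 2.978. Normalisation between arrays makes the values relative levels, and levels of different probe sets are not compared.

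The arrays hold 54675 probe sets. The platform annotation pairs 41091 with a single gene symbol and 1801 with several, from which no gene was named. It does not list 11721, and 62 are controls. Gene IDs of 41037 were found in the RefSeq table of GRCh38.p14, used for names. The brightness limit (log2 above 4 in at least 3 arrays) left 19832 probe sets with 1 gene, and the one with the highest mean stood for its gene.

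All 10907 genes went into a limma fit (limma 3.58.1, R 4.3.3, lmFit and eBayes, 12 arrays in 4 groups), with Benjamini-Hochberg adjustment over all genes and a threshold of 0.05. Standard errors (SE) are limma's, and the scripts were tested on simulated data. After removal of group means, arrays of different groups with the same replicate number correlated at 0.318 to 0.696. Arrays of different groups with different numbers correlated at -0.587 to 0.119, so the numbers pair the arrays. The planned fit leaves replicate number out, and the blocked value, over all arrays or within each time, stands beside a result where it changes the call. The named genes are the NDUF genes past the threshold, the core subunits, the assembly factors and, in each other list, up to 3 genes with the smallest p. The members, lists, motifs and alternatives were chosen with earlier results of these data known. The NRF1 letters were first searched in a form of 10 letters, found in 3 of 38 NDUF windows (7.89%, against 2.84% of tested genes), and were shortened by 1 base after that result was seen, which gave 6 NDUF windows. Alternatives were other brightness limits, averaged probe sets, quantile normalisation, and median centring over all probe sets or (added after seeing the data) over the tested genes. Further ones were array weights, trend and robust options, a replicate block (in 1 fit or within each time), fits of the compared groups alone, and omission of each array, of both Nnm replicate 2 arrays or (added after seeing the data) of replicate 2 of all groups. Python 3.11.15 with matplotlib 3.10.9 made the plots.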

Additional observations from a re-analysis of the deposited data

How the results depend on the processing

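No called NDUF value changed sign under any alternative run. The count of falls over both times (22) was 19 to 28 under the alternatives and 18 to 24 with single arrays left out. The counts at single times, 8 at 24 h and 10 at 48 h, moved by more than 1.5 times in some settings. At 24 h it was 5 with probe sets of a gene averaged, 21 with array weights, 13 with trend and robust settings, 17 with the replicate block over all arrays, 5 with the replicate block within each time, 4 with the compared groups alone, 16 without both Nnm replicate 2 arrays and 18 without the replicate 2 arrays of all groups, and 1 to 15 with single arrays left out. At 48 h it was 22 with array weights, 19 with the replicate block over all arrays, 5 with the replicate block within each time, 3 with the compared groups alone, 22 without both Nnm replicate 2 arrays and 21 without the replicate 2 arrays of all groups, and 1 to 19 with single arrays left out. Settings within each time or with the compared groups alone hold fewer arrays, and for the others the cause was not tested. The share of all genes that fell moved too, within 4.3% to 18.8% at 24 h and 4.7% to 13.7% at 48 h. These ranges cover the planned fit, the 2 replicate blocks and the omissions of replicate 2. For the remaining settings the share is not given, so their counts are not read as particular to NDUF genes. Of the results for single NDUF genes under all alternatives, 2688 had the same outcome as in the planned test, including those that passed in neither. Another 159 passed only under the alternative and 146 only in the planned test. The planned test called 8 genes at 24 h, 10 at 48 h and 23 over both times, so many of the 2688 had no call to lose. Neither the replicate block over all arrays nor that within each time changed any other call of an NDUF gene over both times or at a single time than those given in the report. The number of arrays, 3 a group, limits the precision.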
